A study of Mus musculus with 48 samples.

Results

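The regions described here are stretches of hippocampal RNA whose m6A peaks were called in clearly more mice of 8 months than of 5 months, or the reverse. Peaks of 24 animals were joined into 81807 common regions, and a region was kept when the number of 8-month animals with a peak (of 12) and the number of 5-month animals with a peak (of 12) differed by at least 6. This gave 2494 regions, 2246 called in more animals at 8 months (the 8-month set) and 248 called in more animals at 5 months (the 5-month set). The calls by age chose the members, so the difference between ages is given as a description and was not tested.

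The samples are hippocampi of male mice on a C57BL/6 background: wild-type (WT) littermates and Hdh+/Q111 knock-in mice (KI), a model of Huntington's disease in which 1 copy of the huntingtin gene Htt carries an expanded CAG repeat in every cell. Mice were naive, or had explored objects for 10 min in the training phase of the object location task (OLT), which probes memory for places, and were taken 30 min later. Each of the 8 conditions, WT naive, WT trained, KI naive and KI trained at 5 and at 8 months, holds 3 animals, and each animal is in 1 condition. In MeRIP-seq, fragmented RNA is pulled down with an antibody against m6A and sequenced next to the input RNA, and stretches with more immunoprecipitated than input reads are called as peaks. The animals of the 2 ages are different mice with separate runs of animal numbers, so age and group of animals cannot be told apart.

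N6-methyladenosine (m6A) is the most common internal mark of mRNA. It is placed by a complex of METTL3, METTL14 and WTAP on the A of a short motif called DRACH (A, G or T, then A or G, then A, C, and finally A, C or T), of which GGAC is the best known core. FTO and ALKBH5 can remove it, and reader proteins of the YTH family bind it and change the splicing, export, translation or decay of the transcript. In brain mRNA the mark is dense around the stop codon and in long internal exons, and it is placed on the nascent transcript before the intron is removed.

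The sequences below come from the named regions, in order of difference, for which a window with a DRACH within 50 bases of the summit was read, and they are shown because the sets differ in what surrounds the motif. Each is 29 bases of the transcribed strand of mouse build mm9, with the DRACH nearest the summit (a GGAC core first where there is one) in capitals. The first 5 belong to the 8-month set and the other 5 to the 5-month set. Chd6 lies at chr2:160773755-160773783 (minus strand), Accn1 at chr11:80766090-80766118 (minus), Zfp628 at chr7:4868972-4869000 (plus), Sema7a at chr9:57808401-57808429 (plus) and Magi1 at chr6:93647362-93647390 (minus). Bach2 lies at chr4:32440749-32440777 (plus), Htt at chr5:35125826-35125854 (plus), Diap2 at chrX:126317132-126317160 (plus), Atf7ip at chr6:136532201-136532229 (plus) and Cog7 at chr7:129109125-129109153 (minus).
Chd6: cggtgttacaatTAACTgtgtttttttta
Accn1: ttctttcagaggAAACAacgtttgaagca
Zfp628: gacagcagttctTGACTgagctctgattc
Sema7a: ccaggtacccctGGACAtgtgtgaggtct
Magi1: gcaaggcagccaGAACTctctgaacactg
Bach2: atatgtacagagAGACAcacacaaacaca
Htt: ataaaaaacagaAAACAaagaagaagaag
Diap2: atcttcagagtgAGACAgggagatggagg
Atf7ip: agtgtgtgtgtgTGACTgtgtgtgtgtgt
Cog7: cagtaggaagtaGGACCaggaggcagtag
The windows of Htt, Diap2 and Cog7 hold stretches of A and G, and those of Bach2 and Atf7ip hold short repeats of 2 bases. No match of a motif is read here as a methylated site.

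Only regions called in 6 to 18 of the 24 animals can differ by 6, and these 18674 regions are the background for every share below. Of them, 12.0% were in the 8-month set and 1.33% in the 5-month set. The same rule applied to the other factors of the design gave 2.27% of the background for KI over WT and 0.0696% for WT over KI, 1.55% for naive over trained and 0.166% for trained over naive. The rule sits on a continuous range of values. Just inside it, 1235 regions differed by 6 animals toward 8 months and 167 toward 5 months. Just outside it, 1212 and 371 background regions differed by 5. The background leaves out some regions that differ by 5, such as those called in 5 animals of 1 age and 0 of the other. Over all regions, 4323 and 700 differed by at least 5 animals. The largest differences were 11 animals in the 8-month set (2 regions) and 10 in the 5-month set (1 region). A typical member of the 8-month set was called in 8 of 12 animals at 8 months and 1 of 12 at 5 months (medians), and a typical member of the 5-month set in 9 of 12 animals at 5 months and 2 of 12 at 8 months. In the 8-month set 643 regions were called in 0 animals of 5 months, and in the 5-month set 42 regions were called in 0 animals of 8 months. A missing call is not an absence of m6A, since it also depends on the reads of each library, which the files used here do not give.

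The 2 sets lie in different parts of the gene. In the 8-month set 1395 of 2246 median summits (62.1%, exact 95% interval 60.1 to 64.1 for counting error only) lay in the coding sequence (CDS), against 27.0% of the background. In the 5-month set 4 of 248 summits (1.61%, interval 0.441 to 4.08) lay in the CDS and 184 (74.2%, 68.3 to 79.5) lay in introns, where the background had 32.7% and the 8-month set 13.4%. The 3'UTR held 10.5% of the 8-month set, close to the 10.2% of the background, and 1.61% of the 5-month set. The 5'UTR held 6.19% of the 8-month set and 0 regions of the 5-month set, which allows a share of up to 1.48%. Outside annotated genes lay 5.57% of the 8-month set, 21.4% of the 5-month set and 21.7% of the background. Read the other way, 27.7% of the background regions in the CDS belonged to the 8-month set and 0.0795% to the 5-month set, while for introns these shares were 4.94% and 3.01%.

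**Figure D1:**
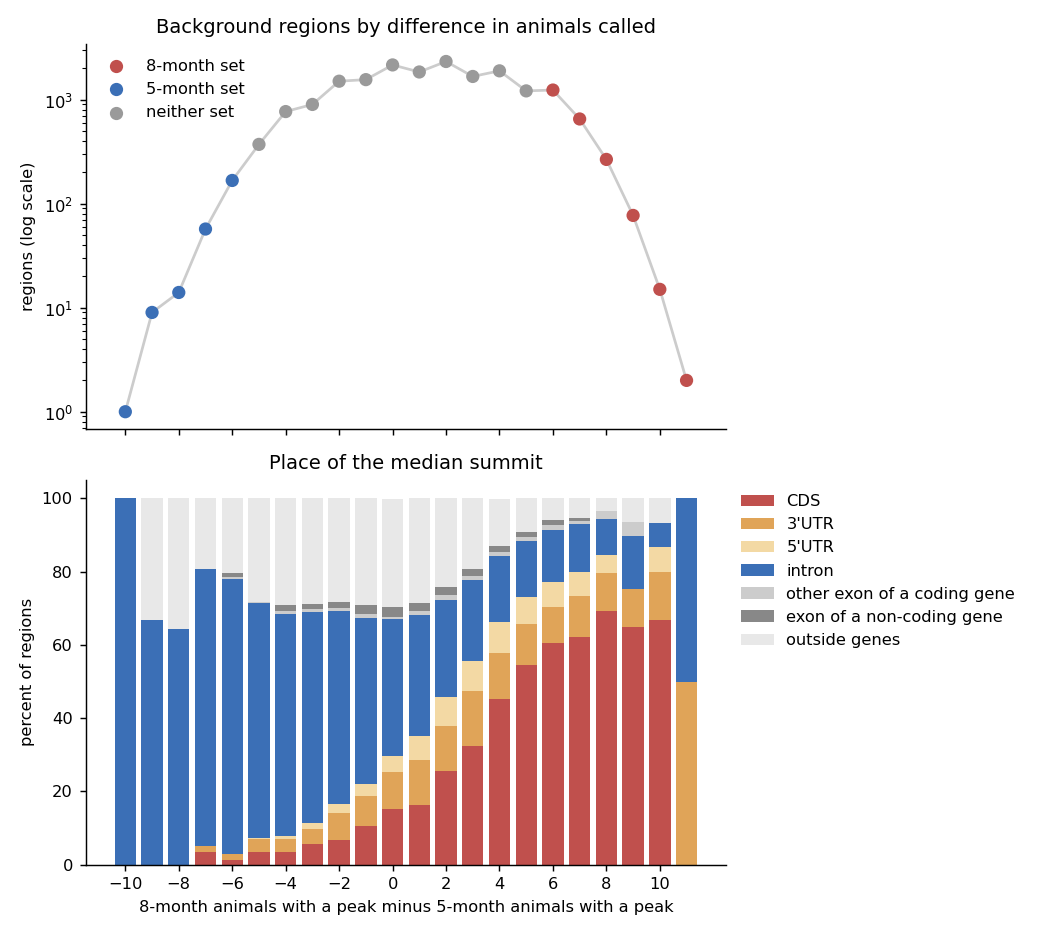
Upper panel: number of background regions (log axis) for each difference, 8-month animals minus 5-month animals with a peak, with both sets coloured. Lower panel: percent of those regions with the median summit in each part of the gene. The CDS share is 1.2% at a difference of -6, 15.2% at 0 and 60.4% at 6, and the intron share is 74.9%, 37.3% and 14.4%. The end bars rest on few regions (1 at -10, 2 at 11).

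Position changed step by step with the difference rather than at the edge of the sets, as the plot of differences shows. Background regions called equally often at both ages had their summit in the CDS in 15.2% of cases and in an intron in 37.3%. Among background regions that differed by 5 animals toward 8 months, just outside the set, the CDS share was 54.5%. At 8 animals it was 69.2%. Among background regions that differed by 5 animals toward 5 months, also outside the set, the CDS share was 3.5% and the intron share 64.2%.

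Within the CDS, the 8-month set favoured short internal exons. The exon that held the summit had a median length of 196.5 bases in the 8-month set, and it was at most 200 bases long for 52.1% of the CDS regions of the set and 40.1% of those of the background. Of 1330 CDS regions with a placed exon, 1240 (93.2%) lay in an internal exon against 78.4% of the background, and 53 (3.98%) in the last exon against 14.3%. Among background CDS regions in exons longer than 100 and up to 200 bases, 36.4% were members of the 8-month set, and among those in exons over 1000 bases 7.22% were. Within 400 transcript bases of the stop codon lay a smaller share of the 1634 exonic regions of the 8-month set (exact 95% interval 13.3% to 16.8%) than of the 7185 of the background (25.9%, interval 24.8% to 26.9%). The place along the CDS as a whole did not set them apart, with a median of 47.8% of its length in the 8-month set and 48.3% in the background.

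The introns of the 2 sets were of different kinds. Where the intron could be placed, its median length was 2082 bases in the 8-month set (n = 279), 44342.5 bases in the 5-month set (n = 168) and 25410 bases in the background. Of the background regions in introns up to 2 kb, 20.3% belonged to the 8-month set and 0.444% to the 5-month set. In introns over 20 kb these shares were 1.34% and 3.88%. The median length of the gene was 45796 bases in the 8-month set, 257373 in the 5-month set and 72668 in the background. Position was not used by the rule, but regions in 1 gene share that gene's RNA, so shares over regions are not shares over independent transcripts.

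The sequence around the summits differed in base make-up as well. Within 50 bases of the summit the median GC content was 56.4% in the 8-month set, 43.6% in the 5-month set and 50.5% in the background. In the 5-month set a median of 74.3% of these bases were A or G on the transcribed strand (middle range 63.4 to 84.2), against 49.5% (44.6 to 55.4) in the 8-month set and 54.5% (46.5 to 62.4) in the background. The gap was also present among introns alone, with 74.3% in the 5-month set, 49.5% in the 8-month set and 60.4% in the background. Windows with 70% or more of A or G made up 113 of the 180 intronic regions of the 5-month set that lie in exactly 1 gene, 7 of 286 in the 8-month set and 30.6% of the intronic background. The 6 letters AAAGAA stood in 37.8% of the intronic windows of the 5-month set, 7.34% of those of the 8-month set and 22.1% of the background. These letters were chosen after the windows were seen and searched on the transcribed strand only.

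**Figure D2:**
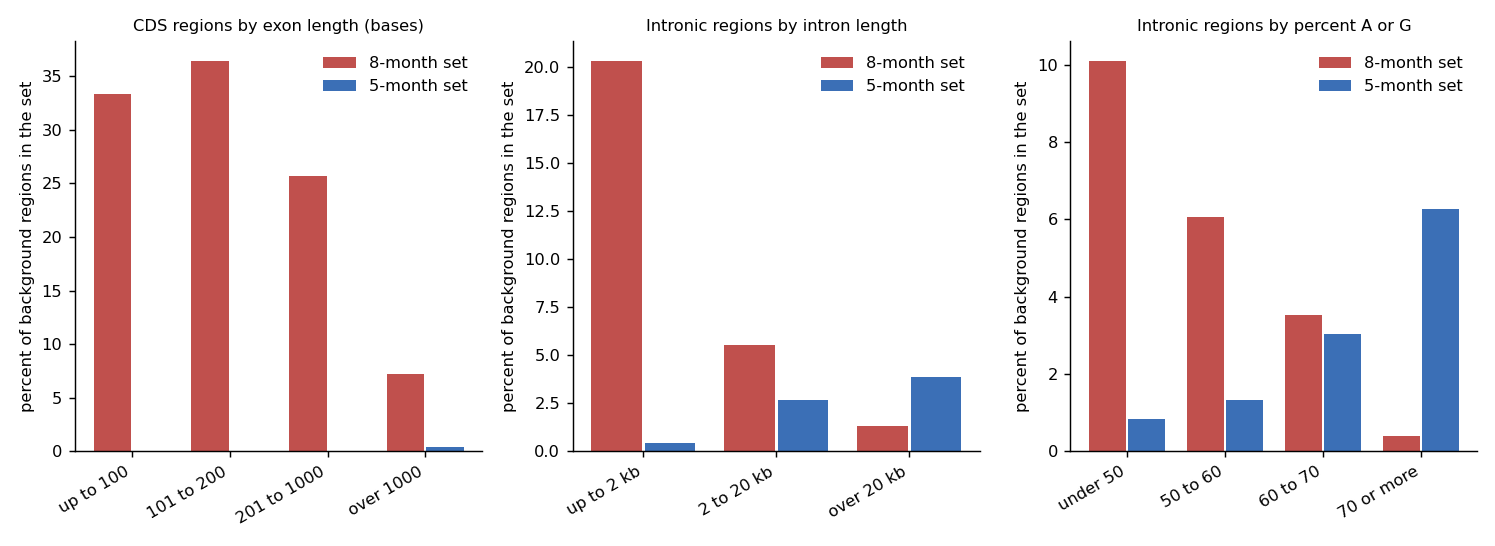
Percent of background regions that belong to the 8-month or the 5-month set, by length of the exon for CDS regions (left), by length of the intron (middle) and by percent of A or G within 50 bases of the summit for intronic regions (right). Members of the 8-month set were 36.4% of the CDS regions in exons longer than 100 and up to 200 bases and 7.22% of those in exons over 1000 bases. With 70% or more of A or G, 0.389% of intronic regions were in the 8-month set and 6.27% in the 5-month set.

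The methylation motif itself separated the sets less than the base make-up did. GGAC stood within 50 bases of the summit in 723 of 1955 regions of the 8-month set (37.0%, exact 95% interval 34.8 to 39.2) and in 32 of 188 of the 5-month set (interval 11.9 to 23.2), where the background had 35.8%. DRACH stood in 83.4%, 67.6% and 82.0% of them. Inside the CDS, GGAC stood in 39.3% of the windows of the 8-month set and in 41.2% of the background. Inside introns it stood in 32.2% of the windows of the 8-month set, 16.1% of the 5-month set and 28.3% of the background.

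Peak strength in the 8-month set depended on the measure. MACS2 gives each peak a fold enrichment, a ratio of immunoprecipitated over input reads at the summit, and its median over members was 3.59 in the 8-month set, 4.99 in the 5-month set and 4.55 in the background. By rank among the peaks of its own animal, where a higher percentile is a stronger peak, the order differed, with a median of 38.6 in the 8-month set, 30.5 in the 5-month set and 28.5 in the background, against 78.5 for regions called in all 24 animals. Most regions of the 8-month set lay in a gene that also held such a region. Of its 2106 regions in coding genes, 1837 (87.2%) lay in a gene with a region called in all 24 animals. The share was 75.6% for the 5-month set and 69.9% for the background. Within 1000 bp of 665 members of the 8-month set (29.6%) lay a region called in at least 6 animals of 5 months. For the 5-month set, a region called in at least 6 animals of 8 months lay that near in 21 of 248 cases (8.47%). The median distance to such a region was 2506 bp for the 8-month set and 19991.5 bp for the 5-month set. A member that itself had 6 calls at the age with fewer calls counted as its own nearest region. The shares are therefore upper limits and the distances lower limits.

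Single animals differed widely in how many members they carried. In the 8-month set the 12 animals of 5 months had a peak in 3.34% to 37.6% of the regions (median 13.3%) and the 12 of 8 months in 27.5% to 98.5% (median 79.2%). The ages overlap here, since 1 naive WT animal of 8 months (27.5%) and 1 trained WT animal of 8 months (35.8%) lay below the highest animal of 5 months, a naive KI mouse (37.6%). In the 5-month set the animals of 5 months had a peak in 29.8% to 89.9% of the regions and those of 8 months in 7.26% to 29.8%, so the groups met at 1 value but did not cross. The lowest animal of 5 months was a trained WT mouse that also had the fewest peaks of all, 22601.

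By condition, members of the 8-month set were called at 5 months in 11.9 ± 9.06% of cases in WT naive, 6.78 ± 5.39% in WT trained, 23.6 ± 12.5% in KI naive and 21.1 ± 10.8% in KI trained mice (mean ± SD, n = 3). At 8 months the values were 65.6 ± 33.5%, 66.6 ± 27.1%, 90.4 ± 9.68% and 62.8 ± 19.8% in the same order. These shares rest on the calls that chose the members and describe how unevenly single conditions carried them. For the 5-month set the values at 5 months were 78.1 ± 7.65% in WT naive, 54.3 ± 22.7% in WT trained, 82.0 ± 7.85% in KI naive and 75.5 ± 14.7% in KI trained mice, and at 8 months 12.9 ± 9.44%, 25.4 ± 5.38%, 23.0 ± 6.67% and 13.1 ± 7.71%.

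**Figure D3:**
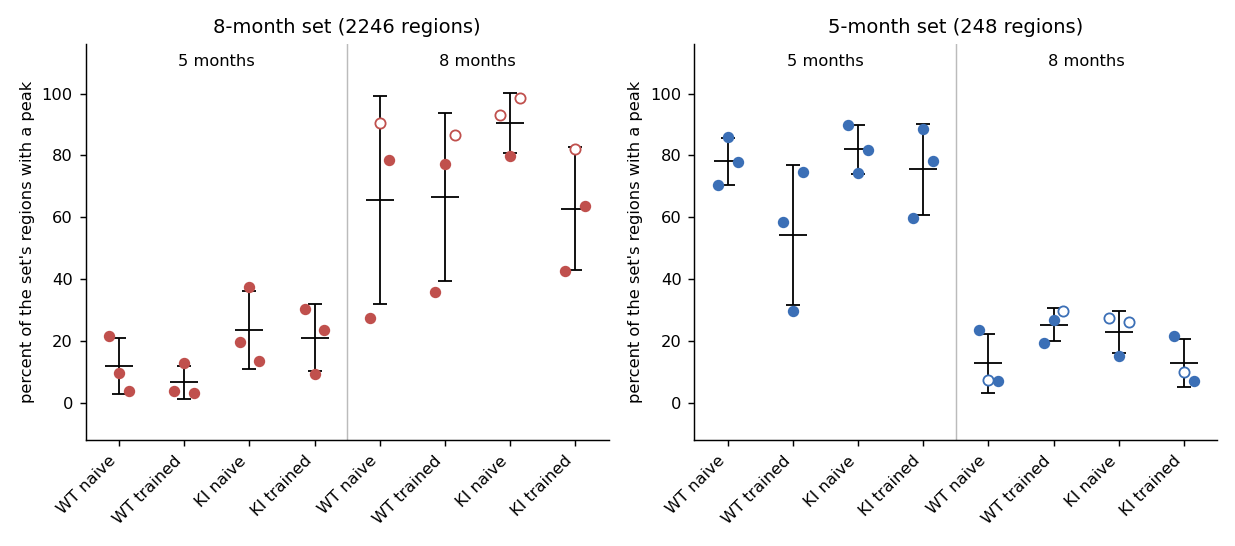
Percent of the regions of the 8-month set (left) and of the 5-month set (right) with a peak in each animal, by condition. Points are animals, bars the mean ± SD of 3 animals, and open points the 5 animals whose narrowest peak is under 100 bp. In the 8-month set the open points lie between 82.2% and 98.5%, above all 7 other animals of 8 months (27.5% to 79.7%).

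The yield of the libraries moved with age. The animals of 5 months had 22601 to 40799 peaks and those of 8 months 29783 to 57293. The narrowest peak of a list, which follows the fragment length that MACS2 used for that library, was 111 to 274 bp wide at 5 months. It was under 100 bp in 5 animals, all of 8 months (48 to 91 bp), and these carried the highest shares of the 8-month set among animals of that age. Without these 5 animals, a difference of at least 0.5 between the shares of animals called left 842 regions toward 8 months, of which 660 are members of the 8-month set, and 464 toward 5 months, of which 181 are members of the 5-month set. The CDS then held 46.2% of the regions toward 8 months, and introns 71.6% of those toward 5 months. When each animal gave the same number of best peaks, 22601, the rule found 513 regions toward 8 months and 534 toward 5 months, so the surplus of the 8-month set was gone. The CDS held 56.7% of the first and 5.06% of the second, and introns 17.3% and 71.3%, where the background of these lists had 27.6% and 30.2%. Of these 513 regions, 66.1% lay in a member of the 8-month set, and of the 534 regions 11.2% lay in a member of the 5-month set. Seen from the main sets, only 15.1% of the 8-month set and 24.2% of the 5-month set held such a region. What part peak yield had in the membership of single regions was not tested.

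The sum of 6 animals that the rule asks for can be made up in different ways by the genotypes, though neither can then run the other way. In the 8-month set the median difference was 3 animals of 6 in KI and 3 in WT, and the difference was larger in KI for 734 regions, larger in WT for 809 and equal for 703. It was at least 3 animals in both genotypes for 1396 regions (62.2%). In the 5-month set the median difference was 4 animals in KI and 3 in WT, and 129 regions had the larger difference in KI, 54 in WT and 65 in neither. The whole difference came from WT in 4 regions and from KI in 2 regions of the 8-month set, and from KI in 4 regions of the 5-month set. The rule sets medians near 3 by itself, so these counts only describe the members. The split of the 8-month set by training was less even, with the larger difference among naive mice for 1125 regions and among trained mice for 516. These counts, too, only describe the members. At 8 months a mean of 67.0% of the background was called in KI naive and 42.0% in KI trained mice. In WT mice of 8 months these means were 44.6% and 52.7% (n = 3 each).

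Since the rule uses the sum over genotypes, the calls of 1 genotype were also set against a choice made on the other alone. Regions called in at least 4 more KI animals at 8 than at 5 months numbered 1249, and in WT mice, which had no part in that choice, 89.4% of them differed in the same direction and 2.16% in the opposite one. Among all regions called in 4 to 8 KI animals the WT calls were higher at 8 months in 60.2% and lower in 20.5%. Of 503 regions called in at least 4 more KI animals at 5 months, 45.3% differed the same way in WT and 29.8% the opposite way. Chosen on WT alone, 1783 regions toward 8 months went the same way in KI in 72.4% of cases and the opposite way in 11.8%, and 110 regions toward 5 months in 76.4% and 5.45%. Among all regions called in 4 to 8 WT animals the KI calls were higher at 8 months in 44.5% and lower in 35.2%. KI and WT mice of 1 age do not share animals but do share that age's peak yield.

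The rule leaves little room for a genotype or training difference in a member. A region that differs by at least 6 animals between ages can differ by at most 6 animals between genotypes or between naive and trained mice, and the smallest 2-sided exact p it can then reach is 0.0137, or 0.00216 for the change with age between genotypes. With Benjamini-Hochberg adjustment over the 35110 regions called in 3 to 21 animals, such values could not pass here, so the tests say nothing about whether members differ by genotype or training. Over all these regions the exact tests called 1 region (no member) at an adjusted p under 0.05 for genotype, 0 for training and 0 for age by genotype. At an unadjusted p under 0.05 they called 1.79%, 1.44% and 1.17% of all regions. The matching counts in the 8-month set were 21, 4 and 18 of 2246, and in the 5-month set 3, 2 and 7 of 248. Nothing is read from these counts.

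The members at the edge of what the rule allows are given as calls. A CDS region of Safb2, which encodes a nuclear scaffold attachment factor, was found in 6 of 6 KI animals at both ages and in 6 of 6 WT animals at 8 but 0 of 6 at 5 months. A CDS region of Dhx30, an RNA helicase, was called in 5 of 6 KI animals at both ages and in 6 WT animals at 8 and 0 at 5 months. Nrxn2, a presynaptic adhesion protein, and Tle3, a transcriptional corepressor, had CDS regions with the opposite split: 6 KI animals at 8 and 0 at 5 months, and 1 of 6 WT animals at each age.

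The named regions had to lie in exactly 1 protein-coding gene, so none of them could lie outside genes. Of all regions at a difference of -9 (9 regions) and -8 (14 regions), 33.3% and 35.7% lay outside genes and the rest in introns. The 12 named regions of the 8-month set are the 12 with the largest differences in exactly 1 protein-coding gene: 7 in the CDS, 2 in a 3'UTR, 1 in a 5'UTR and 2 in introns. All 12 named regions of the 5-month set are intronic. In each of them the values below are the numbers of animals with a peak.

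Chd6, which encodes a chromodomain helicase, had its region at chr2:160773587-160774458 in the 3'UTR, in the last of 37 exons. It was called in 11 of 12 animals at 8 months (all 6 KI and 5 WT, missing in 1 trained WT mouse) and in 0 of 12 at 5 months, with a fold enrichment of 2.44 to 5.07 (median 3.89). Accn1, now called Asic2, encodes an acid-sensing ion channel subunit, and its region at chr11:80766022-80766338 in intron 2 was called in 12 of 12 animals at 8 months and in 1 trained KI mouse at 5 months. These 2 regions hold the largest difference, 11 animals. Zfp628, a zinc finger gene, followed with a 5'UTR region called in 11 animals at 8 months and 1 at 5 months, at a median fold enrichment of 6.16 at 8 months.

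Of the CDS regions, 2 lie in semaphorins, ligands that guide axons. Sema7a (exon 12 of 14, 155 bases) and Sema4c (exon 9 of 16, 152 bases) were each called in 11 animals at 8 months and 1 KI animal at 5 months. Magi1, a scaffold protein of cell junctions and synapses, was called in 10 animals at 8 months, 5 of each genotype, and 0 at 5 months in exon 18 of 24. Inpp1, an inositol polyphosphate phosphatase, had the same counts in exon 2 of 6. Dchs1, a protocadherin, Ctif, a translation initiation factor of the cap-binding complex, and Rexo4, an exonuclease, were called in 11 animals at 8 months and 1 at 5 months. Pik3r1, the regulatory subunit of PI3 kinase, carried the strongest of the named peaks in a 655-base intron, with a fold enrichment of 3.96 to 15.3 (median 8.32) in 12 of 12 animals at 8 months and calls in 2 naive KI mice at 5 months. Across the 12 regions every 5-month call came from a KI mouse, and the WT mice of 5 months had 0 calls. Over all background regions, KI mice of 5 months had a peak in 49.0 ± 7.65% and WT mice in 30.7 ± 10.9% (mean ± SD, n = 6). Nothing about genotype is read from these calls. Regions with tied differences were ordered by the smaller of the genotypes' differences.

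In the 5-month set Bach2, a transcription factor gene, had the region with the largest difference. Its region at chr4:32440453-32441035, in an intron of 100130 bases, was called in 10 of 12 animals at 5 months (6 KI and 4 WT) and in 0 of 12 at 8 months, with a fold enrichment of 2.66 to 6.13. The second named region was in Htt itself, the gene that carries the expanded repeat in KI mice. Its region at chr5:35125641-35126015, in intron 2 of 7441 bases, was called in 12 of 12 animals at 5 months and in 3 at 8 months, of which 2 were KI and 1 WT. The fold enrichment was 3.71 to 12.0 (median 6.06) at 5 months and 4.72 to 6.62 in the 3 animals of 8 months. Over both ages this intron 2 region was called in 8 KI and 7 WT animals. These counts are for this region only and do not describe other peaks of Htt. Diap2, a formin that builds actin filaments, was called in 12 and 3 animals, in the first intron of a gene on the X chromosome.

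Several others are genes of neurons. Astn2, an astrotactin of neuronal migration, was called in 10 animals at 5 and 1 at 8 months. Ncam2, a neural cell adhesion molecule, was called in 11 and 2, and the 2 were trained WT mice. Rab3c, a GTPase of synaptic vesicles, was called in 9 and 0, Nrg3, a neuregulin, in 9 and 1 and Scg5, a secretogranin, in 10 and 2. Ncam2, Nrg3 and Rab3c have these regions in introns of 231740, 343677 and 96724 bases. Cog7 (Golgi transport) and Chsy3 (chondroitin synthesis) were called in all 12 animals of 5 months and in 4 of 8 months.

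**Figure D4:**
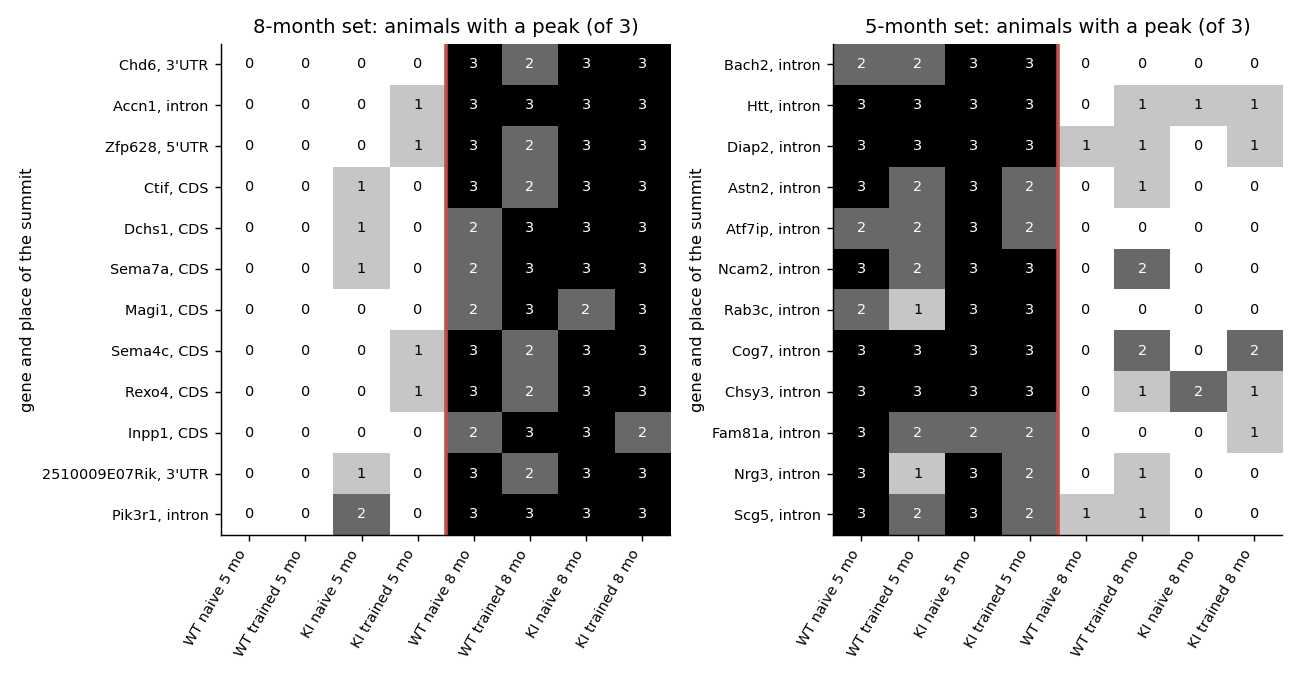
Number of animals with a peak, of 3, in each of the 8 conditions for the 12 named regions of each set (rows, gene and place of the summit). These are the regions with the largest difference among those in exactly 1 protein-coding gene. The line divides 5 from 8 months. In the 8-month set all cells of the 8-month side hold 2 or 3 animals, and in the 5-month set all cells of 5 months hold 1 to 3 animals.

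Many genes held several members of the 8-month set. Its 2020 regions in exactly 1 coding gene fell in 1428 genes, of which 374 held 2 or more and 127 held 3 or more. Spnb3, a spectrin of the neuronal membrane skeleton, held 8, and 7 each lay in Bai1 (an adhesion receptor), Bzrap1 (a presynaptic binding protein), Clip2 (a microtubule-end protein), Crocc (rootletin of cilia) and Tnrc6c (a partner of Argonaute in silencing by microRNAs). Abcb9, a peptide transporter of lysosomes, held 6, all in the CDS. Regions in 1 gene come from 1 RNA and are not independent of each other.

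In the 5-month set 191 regions fell in 173 genes, of which 16 held 2 or more. Gucy1a2, a subunit of the receptor for nitric oxide, held 4, all intronic and called in 6 to 11 animals at 5 months and 0 to 5 at 8 months. Dlg2 and Dlgap1, scaffolds of the postsynaptic density, Gpr158, a receptor of neurons, and Lrrtm4, a synaptic adhesion protein, each held 2.

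A group of 31 genes held members of both sets. Over all 7168 coding genes with a background region, 1539 (21.5%) held a member of the 8-month set and 177 (2.47%) of the 5-month set. With such shares, the overlap is not read as a result about these genes. Together the 31 genes had 46 regions of the 8-month set, 40 of them in exons, and 35 of the 5-month set, all in introns. An exonic region toward 8 months and an intronic one toward 5 months stood in the same gene in 26 of the 31. This pairing follows the places of the 2 sets as a whole. In Odz4, a teneurin of axon targeting, 3 CDS regions were called in 11 or 12 animals at 8 months and 3 or 4 at 5 months, while 2 intronic regions were called in 11 and 8 animals at 5 months and 5 and 2 at 8 months. In Fam5b, 4 CDS regions were called in 0 to 4 animals at 5 months and 6 to 11 at 8 months, and 1 intronic region was called in 12 animals at 5 and 5 at 8 months. Cacna1a, the pore of P/Q-type calcium channels, had CDS regions called in 6 and 8 animals at 8 months and 0 and 2 at 5 months, and an intronic region called in 12 animals at 5 and 5 at 8 months. Ank2, an ankyrin of axons, had CDS regions called in 9 and 6 animals at 8 months against 3 and 0, and an intronic region called in 7 animals at 5 months against 1. Dlgap1 had 1 CDS region called in 10 animals at 8 and 3 at 5 months, and intronic regions called in 10 and 7 animals at 5 months and 3 and 0 at 8 months.

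Gene lists are described by the background regions in their genes, of which 14.6% belonged to the 8-month set and 1.34% to the 5-month set over all coding genes. The lists were not tested. Immediate-early genes, which neurons transcribe within minutes of activity, had the highest share in the 8-month set: 15 of 30 background regions, in 12 of 17 genes with such a region, with 0 in the 5-month set. Per2, Sik1 and Fosl2 held 2 each, and both Per2 regions lay in the CDS and were called in 7 animals at 8 months and 0 at 5 months. Nptx2, a secreted pentraxin at synapses, was called in 8 and 1 animals in its CDS, Fosb in 8 and 2, and Gadd45b in 6 and 0. The 5'UTR of Bdnf, a growth factor of synapses, was called in 7 animals at 8 months (3 KI and 4 WT) and 1 at 5 months. Arc, a regulator of glutamate receptor trafficking, was called in its 3'UTR in 11 and 5. The 15 regions had 66 of 90 possible calls in naive and 51 of 90 in trained mice of 8 months, against 14 and 9 at 5 months. As percentages, naive and trained mice of 8 months had 73.3% and 56.7% of their possible calls. This is close to the whole 8-month set, of which naive mice of 8 months carried 78.0 ± 25.9% and trained ones 64.7 ± 21.3% (mean ± SD, n = 6).

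Microtubule motors and axonal transport had 14 of 50 background regions in the 8-month set and 1, that of Htt, in the 5-month set. Hap1, a huntingtin-associated protein, was called in 8 animals at 8 months and 0 at 5 months in its CDS, and Kif17, a dendritic kinesin, in 11 and 4. Chromatin and histone enzymes had 20.2% of 94 regions in the 8-month set and 0 in the 5-month set. Among them Chd8 and Chd7 were called in the CDS in 10 animals at 8 and 2 at 5 months, Arid1b, a subunit of the SWI/SNF complex, in 8 and 0, and Mll2, a histone methyltransferase, in 10 and 3.

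Genes of the synapse appeared in both sets. Postsynaptic scaffold and signalling genes had 15.8% of 177 regions in the 8-month set and 3.95% in the 5-month set, and presynaptic genes 13.7% and 2.16% of 139. Sipa1l1, a regulator of dendritic spines, was called in its CDS in 11 animals at 8 and 2 at 5 months, Rims1, a protein of the active zone, in 8 and 0, and an intron of Nrxn3, a neurexin, in 0 at 8 and 7 at 5 months. Glutamate receptors had 10.6% of 123 regions in the 8-month set and 1.63% in the 5-month set, with a CDS region of the kainate receptor gene Grik4 called in 8 animals at 8 and 0 at 5 months. The GABA synapse had 2 of 59 regions (3.39%) in the 8-month set and 4 (6.78%) in the 5-month set, so its order of shares rests on few regions. Gabbr2 held a member of each set. Introns of Gabra4, a receptor subunit, of Gphn, the scaffold gephyrin, and of Slc6a11, a GABA transporter, were called in 9, 8 and 8 animals at 5 months and 2 each at 8 months. Voltage-gated channels had 10.1% and 2.01% of 149 regions, and an intron of the potassium channel gene Kcnb2 was called in 11 animals at 5 and 3 at 8 months. Cell adhesion genes had 5.34% and 3.09% of 356 regions.

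The remaining lists had shares of the 8-month set below that over all genes. Splicing factors had 12.9% and 2.15% of 93 regions, CREB, TrkB and cAMP signalling 9.41% and 0 of 85, ubiquitin ligases and deubiquitinases 5.88% and 0 of 51, and the respiratory chain and ATP synthase 1 and 0 of 10 regions. Ribosomal protein genes had 0 of 6 regions in either set. The m6A machinery itself had 2 of 17 regions in the 8-month set and 0 in the 5-month set: a CDS region of Zc3h13, part of the methyltransferase complex, called in 7 animals at 8 and 1 at 5 months, and a 3'UTR region of the demethylase gene Fto called in 6 and 0.

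**Figure D5:**
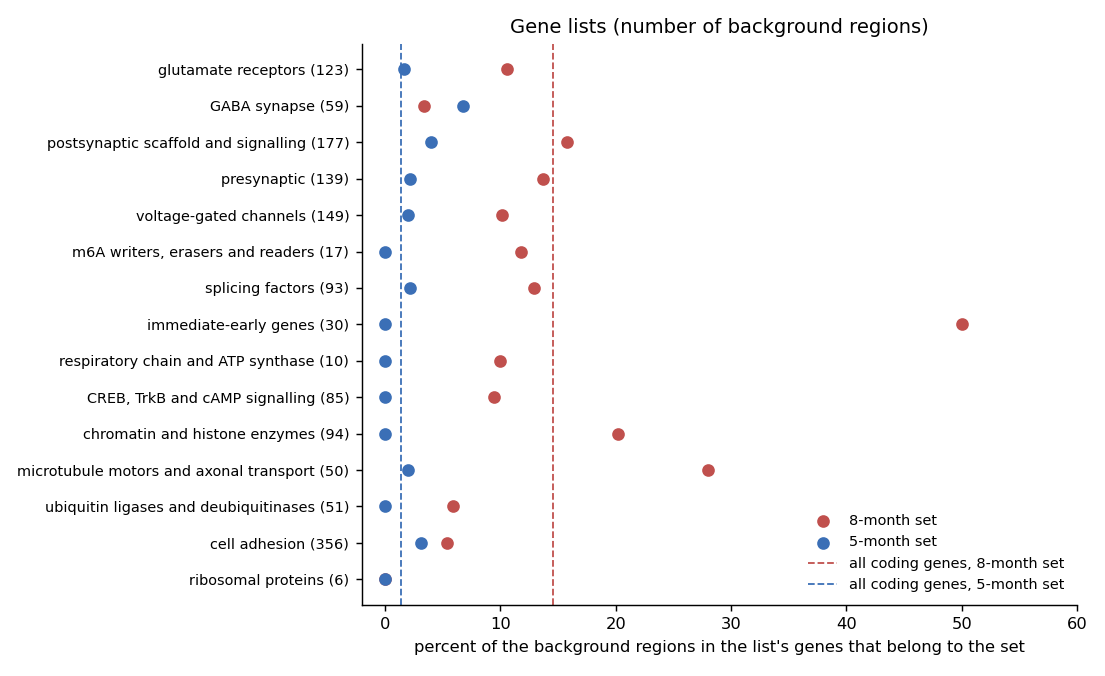
Percent of the background regions in the genes of each list (their number in brackets) that belong to the 8-month or the 5-month set. Dashed lines give the share over all coding genes, 14.6% and 1.34%. Immediate-early genes lie farthest right (15 of 30 regions in the 8-month set). The GABA synapse has its 5-month share (6.78%, 4 of 59 regions) above its 8-month share (3.39%, 2 of 59), on few regions.

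Of the genes listed and annotated, 13 of 13 dentate granule cell markers, 6 of 8 CA1 and 7 of 8 CA3 pyramidal cell markers had a peak region, and so did 12 of 13 striatal markers, so peaks alone do not set the hippocampus apart from other brain tissue. Dentate granule cell markers had 7 of 29 background regions in the 8-month set, with the CDS of Lct called in 9 animals at 8 and 0 at 5 months, CA1 pyramidal markers 4 of 11 (Wfs1 and Man1a among them) and CA3 pyramidal markers 3 of 17 (all in Grik4). Interneuron markers had 0 of 24 regions in either set, microglia markers 0 of 3 and choroid plexus markers 0 of 1. Astrocyte markers had 2 of 18, oligodendrocyte and myelin markers 4 of 20 and 1 region of Mbp in the 5-month set, oligodendrocyte precursors 1 of 13 in each set, endothelium and pericytes 2 of 7, and striatal markers 2 of 20. In tissue RNA a change in the number of cells of a type and a change in their RNA cannot be told apart.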

How the data were processed

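Per the submitters' processing notes and the study's methods, the authors aligned m6A-IP and input reads of 24 hippocampi to mm9 with STAR 2.7.3a, called peaks of each IP with MACS2 2.2.6 and compared groups with DiffBind 2.8.0. The 24 deposited peak lists give each peak a score, a fold enrichment (ratio) and p and q values as −log10. Input libraries have no file used here. The 10 deposited tables of differential peaks hold the authors' own comparisons (mean levels, log2 fold changes, p-values) and were not used.

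Peaks were merged at 1 bp overlap. Median summits were placed in GENCODE vM1 genes (mm9), taking CDS first, then UTRs, other exons and introns. Sequence measures use regions in exactly 1 gene. Exact tests (scipy 1.17.1) ran over 35110 regions with Benjamini-Hochberg adjustment (statsmodels 0.14.6) and were checked on simulated calls. Named regions are the 12 per set with the largest difference among regions in exactly 1 protein-coding gene. After them come genes with most regions, genes in both sets and up to 4 per list. Members, lists and rules were chosen with earlier results of these data known. Library depth is not given in the sources used here. The number of peaks stands in for yield, and intervals cover counting error only. Alternatives were peak thresholds, overlaps, the difference required, the motif window and the animals used. Some items withheld from this text are not reported here.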

Additional observations from a re-analysis of the deposited data

How the results depend on the processing

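The balance of the sets depended on the peaks used. The 8-month set held 90.1% of the shifting regions, but only 49.0% when every animal gave its 22601 best peaks (513 and 534 regions), which turned the balance. It was 80.4% at a −log10 q of at least 3 (1460 and 355) and 65.1% at 5 (845 and 454), equal when peaks had to cover at least 0.5 of the region (709 and 709) and 86.1% with summit windows of 50 bp (2378 and 384). Differences of at least 5, 7 and 8 animals gave 4323 and 700 (86.1%), 1011 and 81 (92.6%) and 360 and 24 regions (93.8%). Leaving out 1 animal, with a share difference of at least 0.5, gave 1123 to 2047 regions toward 8 months, 105 to 223 toward 5 months and a balance of 86.7% to 94.2%. A share of 0.5 is a stricter rule with 11 animals than with 12, and the counts also varied with the animal left out. The lowest counts came without 1 naive KI animal of 8 months with the most peaks, 57293 (1123 regions), and without 1 naive KI animal of 5 months with 40799 peaks (105 regions). The CDS share toward 8 months was then 59.0% to 66.1%.

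The CDS share of the 8-month set was 57.1% with the 3'UTR placed before the CDS and 56.7% with best peaks, and that of the 5-month set 5.06% with best peaks. GGAC within 25 and 100 bases stood in 20.5% and 59.5% of the 8-month set and in 8.51% and 31.9% of the 5-month set. The following alternatives were chosen after the data were seen. Without the 5 animals with peaks under 100 bp the balance was 64.5% (842 and 464) and the CDS share 46.2%. In naive animals alone it was 78.7% (6572 and 1776), in trained animals alone 82.2% (3527 and 766; CDS shares 46.0% and 6.27%), in KI alone 70.5% (4728 and 1978; 5-month CDS share 4.9%) and in WT alone 5364 and 620 regions (CDS shares 47.0% and 4.19%). Member calls for genotype, training and age by genotype were 0 to 0 throughout, which the membership rule fixes, so they say nothing about stability. The 4 other peak settings only take calls away from the 24 named regions, which were chosen for large differences. That 0 of them changed direction therefore says nothing about stability. With best peaks 11 kept a difference of at least 6 and 13 fell below it. No paired analysis was possible because each animal is in 1 condition and the input libraries, which share animal numbers with the IP libraries, have no file used here.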
